A study of Mus musculus with 5 samples.

Results

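The 7 genes described here, Ace, Spn, Itgal, Vcan, Ly6c2, Plac8 and Treml4, are genes often used to mark blood monocytes. They were taken by symbol from the 21983 genes of the count table, and all 7 were found. The set was selected on the counts of these same libraries, with the difference between the genotypes known. The libraries are bulk RNA sequencing of primary microglia, the macrophages that live in brain tissue, taken from mice. In 2 libraries the genotype is Cx3cr1CreERT2 Ythdf2fl/fl, in which a tamoxifen-inducible Cre recombinase driven from the Cx3cr1 locus is combined with floxed alleles of Ythdf2, an N6-methyladenosine reader gene. In 3 control libraries the genotype is Ythdf2fl/fl, the same floxed alleles with no Cre, so the floxed alleles are shared by both groups and the Cx3cr1 allele is not. The labels used here give no age, sex or tamoxifen schedule, and they do not say whether libraries came from separate animals or cultures, so the spread between libraries may be technical.

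Blood monocytes fall into a Ly6C-high class, which leaves the blood for inflamed tissue, and a Ly6C-low class, which patrols the vessel wall. Ly6c2 (the Ly6C antigen), Plac8 and Vcan (versican, a secreted proteoglycan) are used for the first class, and Ace, Spn, Itgal and Treml4 (a receptor of the TREM family) for the second. None of the genes belongs to monocytes alone. Ace encodes angiotensin-converting enzyme, a membrane peptidase that is also abundant in endothelium and choroid plexus epithelium. Spn encodes sialophorin (CD43), a heavily glycosylated surface protein of white blood cells. Itgal encodes the alpha chain of the leukocyte integrin that binds ICAM proteins, and Vcan is also made by fibroblasts and oligodendrocyte precursors.

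The label of monocyte markers was not borne out for the Ly6C-high members Ly6c2 and Plac8, which had almost no counts. Ly6c2 had 2 counts in all, both in the library labelled knockout 2, and Plac8 had 1 count, in control 1. Treml4 was listed at 0 in each of the 5 libraries. These 3 genes did not pass the filter on low counts, and the 4 that did were Itgal, Ace, Vcan and Spn. The set is therefore called by its gene names below.

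The promoters of Ace and Spn are shown because these 2 genes were the members that separated the groups, with that of Vcan, whose groups overlapped, for comparison. Each run holds the 250 bases before an annotated start in RefSeq (GRCm38.p6), from a table that matched 6 of the 7 members; a promoter of Itgal was not used here. Capitals mark AGGAAG or its reverse complement CTTCCT, letters found in binding sites of PU.1 and other ETS factors of myeloid cells.
Ace (chr11:105967698-105967947, plus strand): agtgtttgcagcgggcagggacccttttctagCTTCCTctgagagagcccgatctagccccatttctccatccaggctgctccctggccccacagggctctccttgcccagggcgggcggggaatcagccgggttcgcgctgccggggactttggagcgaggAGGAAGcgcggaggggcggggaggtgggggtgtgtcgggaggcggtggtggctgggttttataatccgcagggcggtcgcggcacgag
Spn (chr7:127137824-127138073, minus strand): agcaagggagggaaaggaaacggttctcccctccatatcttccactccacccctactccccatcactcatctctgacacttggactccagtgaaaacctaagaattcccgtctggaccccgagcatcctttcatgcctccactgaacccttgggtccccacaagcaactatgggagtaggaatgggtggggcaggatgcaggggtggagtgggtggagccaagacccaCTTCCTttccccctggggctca
Vcan (chr13:89742513-89742762, minus strand): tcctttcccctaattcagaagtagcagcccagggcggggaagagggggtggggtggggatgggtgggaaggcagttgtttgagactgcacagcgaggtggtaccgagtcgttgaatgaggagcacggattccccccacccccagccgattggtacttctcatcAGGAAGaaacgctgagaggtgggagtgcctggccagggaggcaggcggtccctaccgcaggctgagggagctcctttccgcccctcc
Each motif was searched on both strands, and a match may be the reverse complement of the letters given. For AGGAAG, 29.5% of the 32851 promoters of this length held a match. The Ace window held it 2 times, with the first base of each match 218 and 88 bases before the start, and the Spn and Vcan windows 1 time each, 22 and 87 bases before theirs. GGGCGG, the letters of a GC box, occurred 4 times before Ace, 2 times before Vcan (the one nearer the start as CCGCCC) and not before Spn, with matches in 32.7% of all promoters. TATAAA had 1 match in the Ace window, as its reverse complement TTTATA on the strand shown, beginning 31 bases before the start, and none in the other windows (12.4% of all promoters). AAAGGTCA, the letters bound by NR4A1, was in none of the 3 (1.34% of all promoters). The first 2 GGGCGG matches before Ace overlap each other. GGGCGG and TATAAA share no letters with the AGGAAG matches shown in capitals. The runs show that Ace has a GC-rich start region (67.2% G and C), as has Vcan (62.4%), with a lower share at Spn (56.8%). RefSeq lists a further Ace start inside the gene, and a gene-level count does not separate transcripts of the 2 starts.

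The libraries held 13947500 to 19577217 gene counts, and 12543 genes were tested. Ythdf2, the gene the labels name as deleted, was not lower where the label says knockout. Its level in CPM, counts divided by the scaled library size and given per 1e6, was 103.5 and 127 CPM in those libraries and 57.0, 69.2 and 68.8 CPM in controls 1 to 3. The fitted log2 change was 0.83 (SE 0.207). The sources used here do not say which exons are floxed, and the 2 libraries are named by their label throughout. Microglial genes were present in all libraries, with Csf1r, the growth factor receptor of the lineage, at 2416 and 3154 CPM versus 2372 to 4220 CPM in the controls. Fcrls, a scavenger-type receptor gene, was at 111 and 129 CPM versus 314 to 795 CPM. Of 11 microglial markers tested 2 lay above and 4 below every control, where over all genes tested 9.85% and 10.4% did. 0 passed edgeR and 6 had an unadjusted p below 0.05, and DESeq2 called 3, all lower. The marker left out, Trem2, was listed at 0 in every library. In edgeR's quasi-likelihood test 0 of 12543 genes passed a Benjamini-Hochberg adjusted p of 0.05 (838 had an unadjusted p under 0.05; DESeq2 called 232 and limma-voom 0).

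Ace and Spn were the members that stood apart between the 2 genotypes. In the library labelled knockout 1 Ace stood at 38.5 CPM, and knockout 2 had 13.1 CPM. In controls 1, 2 and 3 it stood at 0.943, 1.01 and 2.45 CPM. The 2 groups did not overlap, and the lower knockout-labelled library was still several times the highest control. The group means were 25.8 ± 18.0 CPM (SD, n = 2) and 1.47 ± 0.852 CPM (SD, n = 3), a 17.6-fold ratio of means and a log2 fold change of 4.15 (SE 0.653). Its gene, ENSMUSG00000020681.14, lies on chromosome 11 at 105967945 to 105989964 (plus strand, GRCm38, GENCODE M21). Of its 5287 exonic bases 295 (5.58%) are also exon of Gm11651, annotated on the other strand, and counting by strand is not stated in the sources used here.

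The 2 libraries labelled knockout had 15.2 and 8.32 CPM of Spn, where the level was 1.51, 2.79 and 2.75 CPM in controls 1 to 3. Again the groups were separate, and knockout 1 was again the higher of its pair. The means were 11.8 ± 4.88 CPM (SD, n = 2) and 2.35 ± 0.728 CPM (SD, n = 3), 5.01-fold apart, with a log2 fold change of 2.33 (SE 0.465). Spn (ENSMUSG00000051457.7) lies on chromosome 7 at 127132232 to 127137823 (minus strand), and its exons are free of other annotated exons.

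Itgal was the most abundant member and its groups overlapped, with 205 and 153.5 CPM for the knockout label and 141, 168 and 228.5 CPM in controls 1 to 3. Group means were 179 ± 36.5 CPM (SD, n = 2) and 179 ± 45.02 CPM (SD, n = 3), with a log2 fold change of 0.00 (SE 0.286). The highest and the lowest of the 5 values were both controls. Itgal (ENSMUSG00000030830.18) lies on chromosome 7 at 127296260 to 127335138 (plus strand).

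Vcan also overlapped, at 18.7 and 4.76 CPM versus 9.62, 11.6 and 4.68 CPM, so that knockout 1 was the highest library while knockout 2 was close to control 3, the lowest. The means were 11.75 ± 9.89 CPM (SD, n = 2) and 8.63 ± 3.56 CPM (SD, n = 3), and the fitted log2 change was 0.44 (SE 0.664). Leaving out knockout 1 gave -0.89 and leaving out knockout 2 gave 1.11, so its direction rested on 1 library. Vcan (ENSMUSG00000021614.16) lies on chromosome 13 at 89655312 to 89742509 (minus strand).

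**Figure D1:**
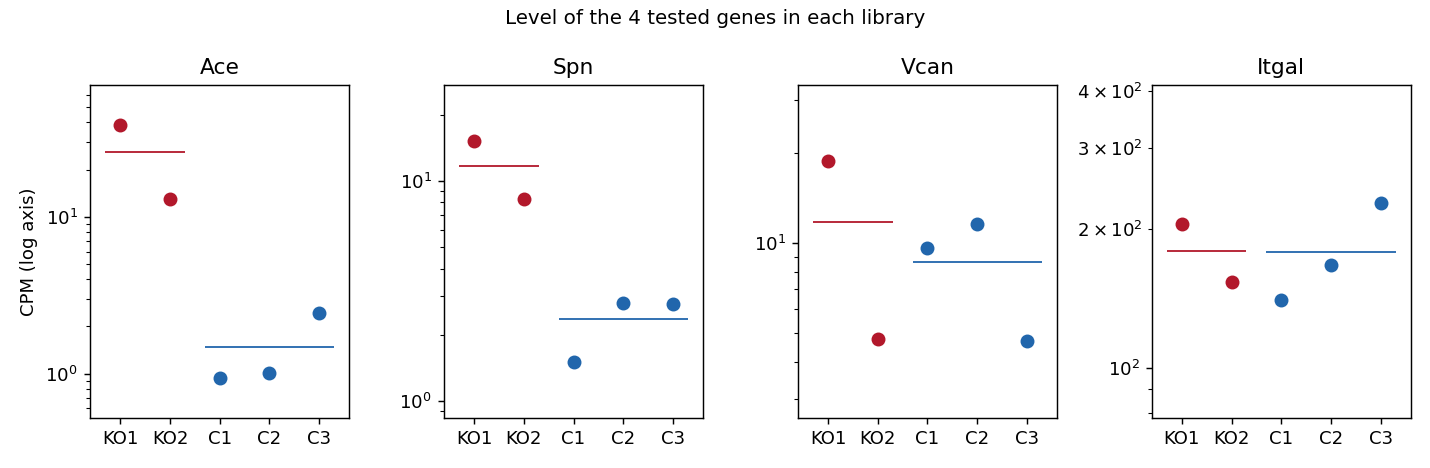
Level of Ace, Spn, Vcan and Itgal in each library, in CPM on log axes that differ between panels; KO1 and KO2 are the libraries labelled knockout (red), C1 to C3 the controls (blue), and lines are group means. Ace (38.5 and 13.1 CPM versus 0.943 to 2.45 CPM) and Spn separate the groups, whereas Vcan and Itgal overlap.

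Because the members were chosen with this contrast known, these differences are a description and carry no test. Of the 4 tested, 2 had groups that did not overlap with the controls lower and 0 with the controls higher, and over all genes tested these shares were 9.85% and 10.4%. None was among the edgeR calls, where the share over all genes was 0%. DESeq2 called Ace and Spn higher, and over the 13811 genes it adjusted it called 1.06% higher and 0.623% lower. In bulk libraries more cells of a type cannot be told apart from more RNA per cell.

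Per kilobase of exon the order of the members was not the order by CPM. Itgal was highest in every library, at 31.2 and 23.4 CPM per kb in the libraries labelled knockout and 21.4 to 34.8 CPM per kb in the controls. In the libraries labelled knockout Ace followed, at 7.29 and 2.47 CPM per kb, and Spn came next at 3.25 and 1.78 CPM per kb, with ranges that overlapped those of Ace. Vcan, the longest at 14462 exonic bases, stood at 1.3 and 0.329 CPM per kb, below Spn in both. In the controls the ranges of Vcan (0.324 to 0.802), Spn (0.322 to 0.596) and Ace (0.178 to 0.464 CPM per kb) overlapped one another as groups. Within each control library Spn was above Ace, while Vcan was above Spn in controls 1 and 2 and below it in control 3. Ly6c2 reached at most 0.0395 CPM per kb and Plac8 the same.

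The 3 members with almost no counts differ in how far that absence can be read. Plac8 (chromosome 5, 100553725 to 100572245, minus strand) lies among expressed genes: 9 of its 10 nearest protein-coding neighbours in the table had at least 10 counts over the 5 libraries. None of its transcript 50-mers (stretches of 50 bases) occurs in another gene's transcripts in GENCODE. A count of 0 allows up to 3 counts, or 0.162 to 0.223 CPM in these libraries, a limit that holds for Plac8 in the 4 libraries where it had no count.

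Ly6c2 (chromosome 15, 75108158 to 75111970, minus strand) has a close copy, Ly6c1, on the same chromosome, and 14.5% of its 50-mers and 5.81% of its 100-mers were shared with other genes. Ly6c1 itself had 2 counts, both in control 1. The sources used here do not say how reads that fit more than 1 place were counted, and the counts of Gapdh, a glycolytic gene with many processed copies, were only 80 to 133 per library, with 25.1% of its 50-mers shared. Of the Ly6c2 50-mers 85.5% were its own. For Gapdh that share was 74.9% and its counts were still low, so the share sets no limit on reads lost for Ly6c2. Of the 10 nearest protein-coding neighbours of Ly6c2 in the table, 4 had at least 10 counts and 4 had none. Whether the total of 2 counts marks absence of the Ly6c2 transcript was not tested.

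Treml4 (chromosome 17, 48264295 to 48275360, plus strand) could not be read at all. It lies in a run of 16 consecutive protein-coding genes of the table, from 1700122O11Rik to Unc5cl (48036745 to 48539714), that were each listed at 0 in every library. The run holds Trem1, Trem2, Trem3, Treml1 and Treml2, and also Nfya, a subunit of the general CCAAT-binding factor, and Oard1, an ADP-ribose hydrolase gene, both of which most cell types express. Trem2 is a defining gene of microglia. On either side counts resume, with Foxp4 at 2783 counts and Lrfn2 at 9, followed by Mocs1 at 3472. No reading of 0 in this run was taken as absence of the transcript, and Nfya, Oard1, Foxp4, Lrfn2 and Mocs1 were named after their values were seen.

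**Figure D2:**
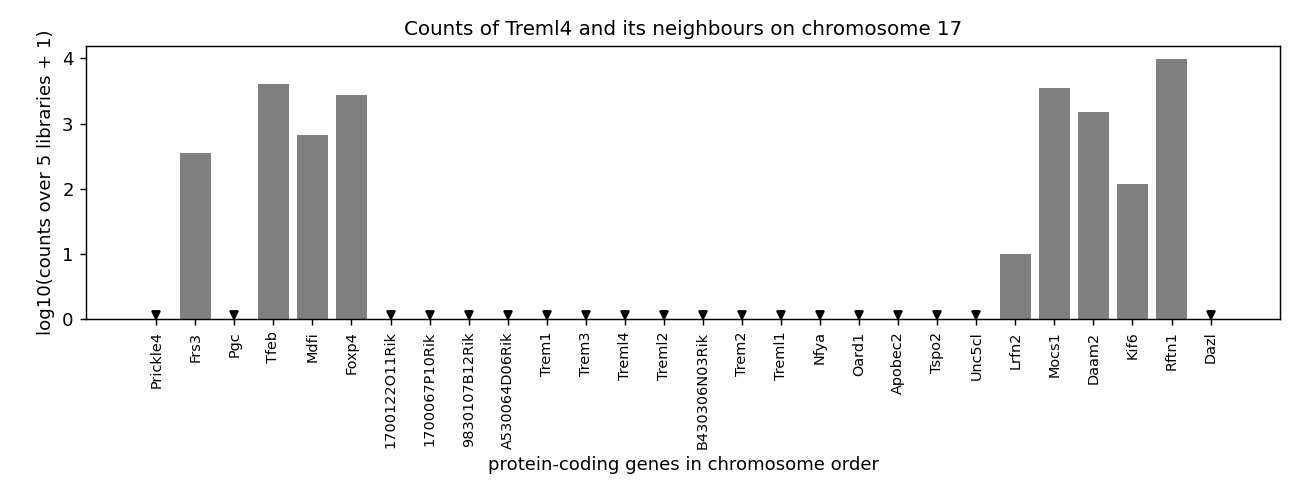
Counts summed over the 5 libraries, as log10(counts + 1), for Treml4 and the protein-coding genes of the table around it in chromosome order; triangles mark genes at 0. The 16 genes from 1700122O11Rik to Unc5cl, Trem2, Nfya and Oard1 included, are all at 0, between Foxp4 (2783 counts) and Lrfn2 (9 counts).

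Other genes of Ly6C-high monocytes were mostly overlapping between groups. For this list and the related lists below, the shares over all genes tested were 9.85% above every control and 10.4% below. Of 16 listed, 11 were tested, with a positive log2 fold change in 9 and a negative one in 2. 0 passed edgeR (2 with unadjusted p below 0.05, both higher; DESeq2 called the same pair, F13a1 and Emb). 3 lay above every control and 0 below. Their median log2 fold change was 0.43, against 0.01 over all genes tested, and it was -0.47 without the library labelled knockout 2. Hp, the haptoglobin gene, stood at 11.1 and 79.7 CPM versus 9.43, 10.1 and 0.520 CPM (log2 change 2.76 with SE 1.16), and knockout 1 was barely above the highest control. Emb, which encodes the adhesion protein embigin, stood at 10.8 and 21.0 CPM versus 2.38 to 3.68 CPM (log2 change 2.30 with SE 0.425). F13a1, a transglutaminase gene that border-associated macrophages also express, stood at 79.1 and 185 CPM versus 23.9 to 47.0 CPM (log2 change 1.97 with SE 0.449).

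The order of the 2 libraries labelled knockout was not shared by these genes. Hp, Emb and F13a1 were higher in knockout 2 than in knockout 1, by 1.94-fold for Emb and 2.34-fold for F13a1, whereas Ace and Spn were 2.95-fold and 1.83-fold higher in knockout 1. The most abundant genes of the list overlapped between groups: Lyz2, a lysozyme gene of all macrophages, at 3990 and 26290 CPM versus 5156 to 13900 CPM, Fn1, the fibronectin gene, at 2244 and 1407 CPM versus 356 to 1785 CPM, and Thbs1, a thrombospondin gene, at 40.7 and 98.5 CPM versus 14.6 to 256 CPM. Ccr2, the chemokine receptor that defines the Ly6C-high class, was at 0.773 and 1.89 CPM versus 0.634 to 1.64 CPM, with overlapping groups. Chil3 and S100a4 were at 0 in each library, and Ccr2, Chil3 and S100a4 were named after their values were seen. Of the 10 nearest protein-coding neighbours in the table, 2 were also at 0 for Chil3 and 5 for S100a4. Whether a 0 of these genes, or of others at 0 below, marks absence was not tested.

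Other genes of Ly6C-low monocytes were set beside Ace and Spn, which mark the same class. Of 18 listed, 14 were tested and 0 passed edgeR (2 with unadjusted p below 0.05, both lower; DESeq2 called 0). The log2 fold change was negative in 12 and positive in 2, with a median of -0.41 that became -0.19 with knockout 1 left out and -1.505 with knockout 2 left out. In this list 0 genes lay above every control and 3 below. Nr4a1, the nuclear receptor on which this class depends and also an immediate early gene, stood at 2.02 and 1.78 CPM versus 13.4, 9.25 and 3.12 CPM (log2 change -2.18 with SE 0.695). Cx3cr1, the fractalkine receptor gene and the site of the Cre, stood at 337 and 97.7 CPM versus 681 to 992 CPM (log2 change -1.85 with SE 0.571). Eno3, an enolase gene, stood at 3.93 and 4.59 CPM versus 4.83 to 5.34 CPM (log2 change -0.26 with SE 0.353), a narrow gap. The scavenger receptor gene Cd36, at 787 and 1181 CPM, and Cebpb, a transcription factor gene, at 71.1 and 311 CPM, overlapped the controls (1137 to 2131 and 188 to 363 CPM).

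**Figure D3:**
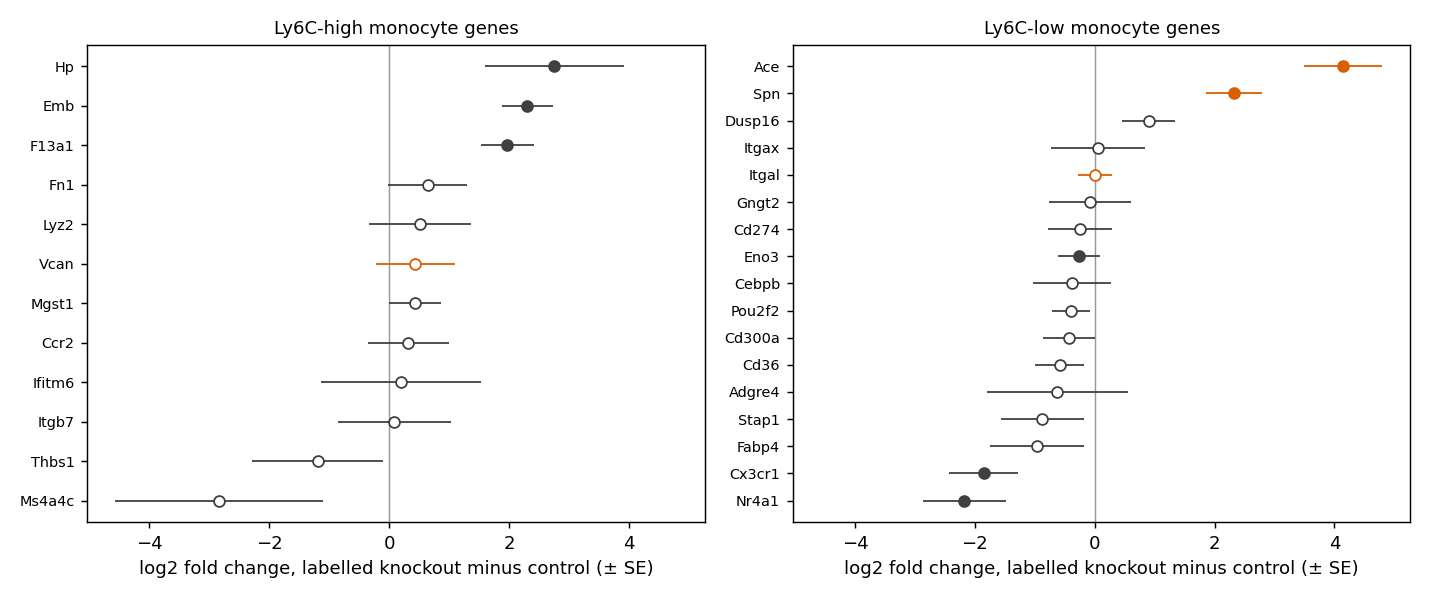
Log2 fold change (labelled knockout minus control, bars ± SE from the edgeR fit) of the tested genes of Ly6C-high (left) and Ly6C-low (right) monocytes; orange marks members of the set, and filled points mark genes whose groups do not overlap. Ace (4.15) and Spn (2.33) are the highest in the right panel. Of the 14 genes there that are not members 12 are negative, and the member Itgal is at 0.00.

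Transcription factors of the monocyte lineage were tested in 13 of 15 cases and 0 passed edgeR (2 with unadjusted p below 0.05, both lower; DESeq2 called 0). The median log2 fold change was -0.39 (-0.23 with knockout 1 left out and -0.91 with knockout 2 left out), with 12 negative and 1 positive, and of those tested 0 lay above and 4 below every control. Cebpe, a granulocyte factor gene too low to be tested, had 0.952 and 0.5945 CPM for the knockout label and 0 to 0.0629 CPM in the controls, and was named after its values were seen. Besides Nr4a1, counted here too, the genes below the controls were Bcl6, a repressor gene, at 40.6 and 60.3 CPM versus 88.3 to 121 CPM (log2 change -1.07 with SE 0.270), Klf2 at 18.7 and 19.56 CPM versus 19.8 to 44.6 CPM, and Irf4 at 1.55 and 2.43 CPM versus 2.83 to 3.17 CPM. The myeloid master factor gene Spi1 overlapped, at 147.5 and 429 CPM versus 273 to 465 CPM, as did Cebpa (215 and 392 CPM versus 326 to 555 CPM) and Zeb2 (523 and 466 CPM versus 487 to 611 CPM).

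The genes around Ace in the angiotensin system were mostly undetected. Of 15 listed, 4 were tested and 0 passed edgeR (0 with unadjusted p below 0.05; DESeq2 called 0), with 0 outside the range of the controls. The substrate gene Agt reached at most 1.25 CPM, in the library labelled knockout 1, and the receptor genes Agtr1a, Agtr1b and Agtr2 and the renin gene Ren1 were at 0. These 5 were named after their values were seen. Anpep, an aminopeptidase gene that trims angiotensin peptides, stood at 381 and 690 CPM versus 186, 197 and 536 CPM. The carboxypeptidase gene Ctsa (749 and 1953 CPM versus 1213 to 1813 CPM) and the prorenin receptor gene Atp6ap2 (227 and 261 CPM versus 236 to 333 CPM) also overlapped.

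Genes that act with Spn kept overlapping levels, with 1 exception, near the 9.85% of all genes tested that lay above every control. They were 12 tested of 13 listed, with a median log2 fold change of 0.13 (-0.004 with knockout 1 left out and -0.01 with control 1 left out) and 0 passing edgeR (0 with unadjusted p below 0.05; DESeq2 called 0). St3gal1, which adds sialic acid to the sugars of CD43, stood at 136 and 165 CPM versus 102.5 to 135 CPM (log2 change 0.34 with SE 0.219), just outside the controls. Siglec1, a macrophage receptor that binds sialylated CD43, stood at 2571 and 3229 CPM versus 1475, 1657 and 4715 CPM. Msn, the moesin gene that ties CD43 to actin, stood at 1267 and 1148 CPM versus 1263 to 1490 CPM, and Lgals1, a galectin gene, at 350 and 497 CPM versus 244 to 393 CPM.

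Itgal acts as a dimer with the beta chain Itgb2, which stood at 581 and 1266 CPM versus 863 to 1280 CPM and overlapped. Of the 18 partners, ligands and activators of this integrin 15 were tested. 0 passed edgeR (1 higher and 1 lower with unadjusted p below 0.05; DESeq2 called 0). 2 lay above and 2 below every control, close to the shares over all genes tested (9.85% and 10.4%). The median log2 fold change was -0.13 (0.14 with knockout 1 left out and -0.56 with knockout 2 left out). Cyth1, a cytohesin gene, stood at 108 and 128 CPM versus 75.0 to 90.7 CPM (log2 change 0.51 with SE 0.200), and Rassf5, the Rap effector gene, at 36.1 and 40.1 CPM versus 28.6 to 32.6 CPM. F11r, a junctional ligand gene, stood at 11.9 and 3.62 CPM versus 14.9 to 32.7 CPM (log2 change -1.67 with SE 0.609), and Rap1b, a small GTPase gene that activates integrins, at 299 and 389 CPM versus 446 to 830 CPM (log2 change -0.81 with SE 0.346). Tln1, the talin gene, overlapped at 2169 and 1502 CPM versus 1586 to 2563 CPM.

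Relatives and partners of versican were tested in 17 of 23 cases, with 0 passing edgeR (1 with unadjusted p below 0.05, higher; DESeq2 called 0). The median log2 fold change of 0.34 was -0.56 with knockout 1 left out and -0.04 with control 3 left out. 3 lay above every control and 0 below. Hmmr, a hyaluronan receptor gene that is also a mitotic gene, stood at 44.9 and 12.7 CPM versus 2.39 to 11.1 CPM (log2 change 2.39 with SE 0.817). Ncan, the neurocan gene, stood at 27.3 and 21.5 CPM versus 2.16 to 15.5 CPM, and Chsy1, a chondroitin synthase gene, at 30.2 and 28.2 CPM versus 13.4 to 26.6 CPM. Adamts4, a protease gene that cuts versican, had its highest value in the same library as Vcan, at 402 CPM in knockout 1, and 65.1 CPM in knockout 2 against 26.9 to 129 CPM in the controls. The hyaluronan receptor gene Cd44 (274 and 210 CPM versus 241 to 421.5 CPM) and Tlr2 (213 and 320 CPM versus 187 to 275 CPM) overlapped.

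Of the Ly6 family beside Ly6c2, 6 of 13 genes were tested and 0 passed edgeR (1 with unadjusted p below 0.05, higher). Lynx1, a neuronal member that binds nicotinic receptors, was that gene and was called by DESeq2, at 14.5 and 2.92 CPM versus 0.317 to 0.817 CPM (log2 change 4.02 with SE 0.855), and it was the one member outside the controls. Ly6e, an interferon-induced member, stood at 117 and 788 CPM versus 350 to 1589 CPM, and Plaur, the urokinase receptor gene, and Cd59a, a complement inhibitor gene, had log2 fold changes of -0.02 and 0.21. Of the TREM family and its adaptors 3 of 9 were tested and 0 passed edgeR (0 with unadjusted p below 0.05; DESeq2 called 0). These were the adaptor genes Tyrobp (111 and 651 CPM versus 211 to 672.5 CPM) and Hcst (1.31 and 8.32 CPM versus 3.99 to 6.98 CPM) and the kinase gene Syk (356 and 465 CPM versus 272 to 441 CPM).

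Over the 9 related lists 90 distinct genes were tested. 0 passed edgeR, and 9 had an unadjusted p under 0.05, 5 higher and 4 lower, where the shares over all genes tested were 3.99% and 2.69%.

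Markers of other cells that express Ace or Spn were set beside them. Over all genes tested 9.85% lay above every control and 10.4% below, the shares to set beside each marker list that follows. Most markers in the list of choroid plexus and ependyma were high in the libraries in which Ace was high. Of 10 tested, 8 lay above every control (0 passed edgeR, 8 with unadjusted p below 0.05, and DESeq2 called 8). The 2 that overlapped were the ciliary genes of the list, Foxj1 and Cfap126. Cfap126 stood at 1.25 and 1.35 CPM versus 0.4435 to 2.16 CPM. The summed level of the list was 195 and 233 CPM for the knockout label versus 12.2 to 31.6 CPM in the controls. Ttr, the transthyretin gene, stood at 101 and 203 CPM versus 5.89 to 24.8 CPM, Clic6 at 25.1 and 5.67 CPM versus 0.127 to 0.372 CPM, and Foxj1, a ciliary factor gene, at 10.4 and 3.51 CPM versus 0.892 to 5.91 CPM. The ratio of knockout 1 to knockout 2 was 2.95 for Ace, 4.42 for Clic6, 5.76 for Otx2, 5.03 for Slc4a5, 2.87 for Folr1, 2.30 for Aqp1, 2.03 for Kcnj13, 2.02 for Kl and 0.499 for Ttr. Those beside Ace are the 8 markers that lay above the controls. Of these, the ones not given with their levels, and also Cfap126, were named after their values were seen. The part of these cells in the level of Ace was not tested.

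Endothelial markers did not separate as a list: 5 of 10 were tested, 1 lay above and 1 below every control (0 passed edgeR, 2 with unadjusted p below 0.05; DESeq2 called Vwf, higher), and the summed level was 138 and 97.1 CPM versus 51.2 to 134 CPM. Vwf, the von Willebrand factor gene, stood at 55.6 and 81.8 CPM versus 8.25 to 18.6 CPM, while Flt1 and Kdr, receptor genes for vascular growth factors, overlapped at 71.9 and 10.6 CPM versus 29.7 to 106.5 CPM and at 7.02 and 3.46 CPM versus 4.40 to 9.22 CPM. The defining markers Cldn5, Tie1 and Emcn were at 0. Lymphocyte markers, which matter for Spn and Itgal, summed to 0.654 and 0.6485 CPM versus 0.317 to 3.79 CPM. 8 of the 13 in the table were at 0, among them Cd3e, Cd3d, Cd3g and Cd2, and Lck, the highest of them, overlapped at 0.535 and 0.216 CPM versus 0.0634 to 1.34 CPM.

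Dendritic cell markers summed to 3.27 and 8.49 CPM versus 7.43 to 9.30 CPM, with 0 of 2 tested above the controls, Zbtb46 below and Batf3 overlapping. Neutrophil markers summed to 45.9 and 199 CPM versus 148 to 224.5 CPM, nearly all of it Csf3r. S100a9, Ly6g, Mpo, Ltf and Retnlg were at 0 while S100a8 and Mmp8 overlapped. Of the 10 nearest protein-coding neighbours of S100a9 and of Ly6g, 5 and 4 were also at 0. Border-associated macrophage markers, 10 of 10 tested, had 1 above (F13a1, called by DESeq2) and 1 below every control and summed to 4820 and 6667 CPM versus 4356 to 6021 CPM. Stab1 and Mrc1 stood at 4162 and 4384 CPM and at 382.5 and 1200 CPM, against 3517 to 4911 CPM and 216 to 618 CPM. Ms4a7 stood at 77.8 and 328 CPM versus 165 to 670 CPM.

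For Vcan the cells set beside it were fibroblasts and oligodendrocyte precursors. Fibroblast and mural markers were 5 of 8 below every control and 0 above (0 passed edgeR, 5 with unadjusted p below 0.05; DESeq2 called Postn and Dcn, lower), summing to 38.4 and 18.1 CPM versus 41.3 to 133 CPM, with Postn at 0.476 and 0.6485 CPM versus 13.2 to 58.9 CPM, Col1a1 at 10.5 and 3.57 CPM versus 11.2 to 28.4 CPM and Col1a2 overlapping. Oligodendrocyte markers overlapped in 10 of 10 and summed to 12350 and 4598 CPM versus 10520, 9438 and 1286 CPM, with Mbp and Mag among the most abundant. Knockout 1 was the highest library and control 3 the lowest in this sum, as for Vcan, and the part of these cells in the level of Vcan was not tested. Astrocyte and neuronal markers summed to 168 and 57.5 CPM versus 39.3 to 109 CPM, with 0 of 8 tested above and 1 below every control; Tubb3, Aldh1l1 and Map2, the most abundant, overlapped.

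The genes whose profiles were most like that of Ace were sought among 9747 genes with a mean of at least 5 CPM, by the root mean square difference of centred log2 CPM over the 5 libraries. In order they were Tmem72 (0.154), a transmembrane protein gene, Mfrp (0.325), a frizzled-related protein gene, Trpm3 (0.346), a cation channel gene, Slc4a10 (0.400), a bicarbonate transporter gene, and Atp2a3 (0.463), a calcium pump gene. Tmem72 had 23.8 and 6.54 CPM for the knockout label and 0.440, 0.380 and 1.19 CPM in the controls, tracking Ace in the order of all libraries but controls 1 and 2. Spn was 15th among the genes nearest to Ace, at a difference of 0.941. The nearest to Spn were Emilin2 (0.2935), an extracellular matrix protein gene, Epas1 (0.3055), a hypoxia-inducible factor gene, Ptpn7 (0.356), a phosphatase gene of blood cells, Micall2 (0.3825) and Angptl2 (0.385), an angiopoietin-like gene. Emilin2 stood at 293 and 263 CPM versus 48.7 to 78.9 CPM. With 5 libraries many genes can share such a profile, and these names are a description.

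**Figure D4:**
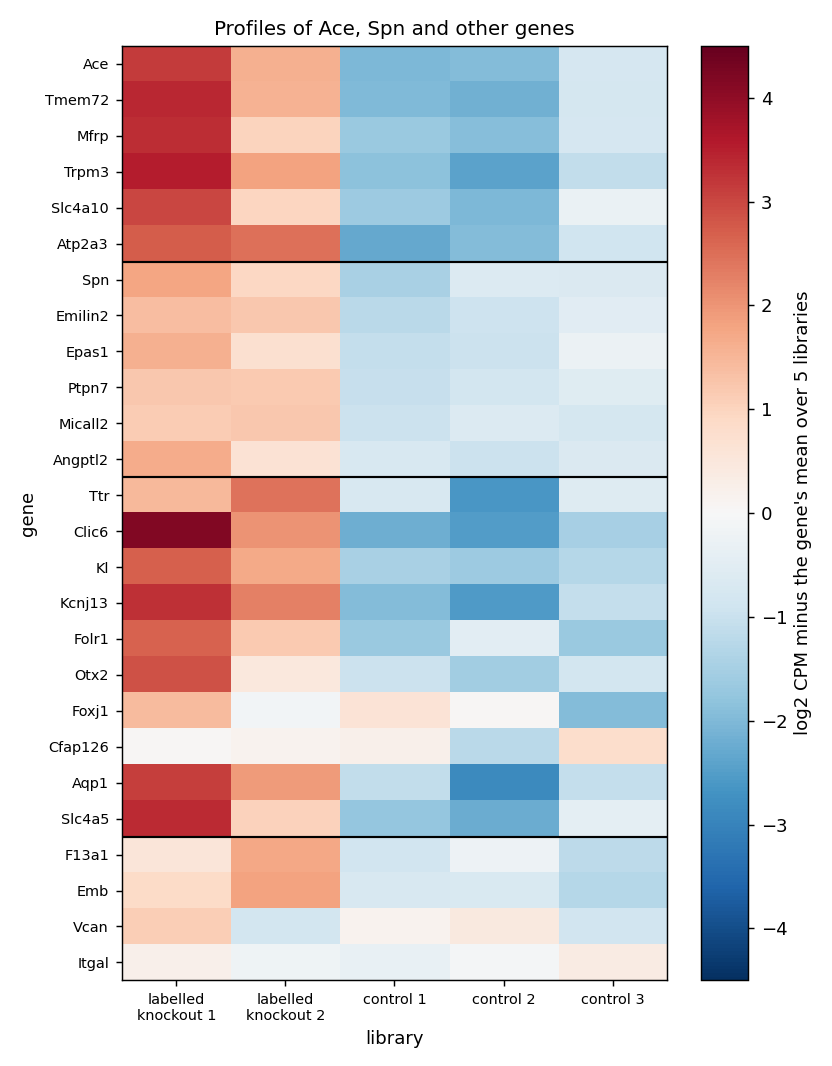
Log2 CPM minus each gene's mean over the 5 libraries, by library, for Ace and Spn each with the 5 genes most like it, for the 10 choroid plexus and ependymal markers, and for 4 other genes. Ace runs from 3.14 in the library labelled knockout 1 to -2.03 in control 1, Tmem72 from 3.40 there to -2.17 in control 2, and Spn from 1.78 to -1.45 in control 1, while Vcan and Itgal show no separation of the groups.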

How the data were processed

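The authors deposited whole-number read counts per gene symbol, 1 column per library, with no normalization visible in the values. Per the submitters' processing notes, the tools were FastQC, STAR and HTSeq and the build was mm10. No version, annotation, strand setting or rule for multiply mapped reads is given in the sources used here. Libraries were made from Trizol-extracted RNA with a NEBNext Ultra kit, per the labels' protocols. Groups and numbers came from sample titles; that of control 3 carries 2 numbers, and its library number was used.

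The members and lists were chosen with earlier results of these data known. edgeR 4.0.16 (R 4.3.3) was fitted to all 5 libraries with filterByExpr, TMM factors and robust quasi-likelihood estimation, two-sided, with Benjamini-Hochberg adjustment over 12543 genes and 3 residual degrees of freedom. The step was tested on simulated data. CPM values use TMM-scaled library sizes; log2 CPM values use a prior count of 2. Standard errors were derived from the fold change and F statistic. Alternatives were other scalings, no filter, DESeq2 1.42.0, limma-voom (limma 3.58.1), a replicate block and each library left out.

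Named by rule were the members, Ythdf2, Cx3cr1, the 3 genes of each list with the highest mean CPM, up to 4 related genes per list with the largest change among those whose groups did not overlap, and the 5 genes most like Ace and Spn. A few genes that the rule names are not reported here. GENCODE M21 (GRCm38), which held 99.7% of the symbols, gave coordinates and exon lengths. RefSeq gave promoters.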

Additional observations from a re-analysis of the deposited data

How the results depend on the processing

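The groups hold 2 and 3 libraries, which leaves 3 residual degrees of freedom, and depth does not allow a ranking of the members under 3 counts. edgeR called 0 genes under either other scaling, without a filter, in limma-voom and without each library in turn (0 to 0); DESeq2 called 232. The title numbers pair 2 libraries of each group, and with the replicate block edgeR called 4 genes, with 1 of the list genes (Postn) and no member among them. Correlations of deviations from the group means were 0.148 for the libraries numbered 1 and -0.562 for those numbered 2. By the other number in its title, control 3 would go with knockout 2, at 0.473. With 2 libraries labelled knockout, their deviations mirror each other, so these values cannot show whether the numbers mark pairs. Of the list genes, 0 were called in edgeR, 17 by DESeq2 and 1 with the replicate block, and 0 to 0 with a library left out. The count of members above every control was 2 under other scalings and 2 to 3 with a library left out, Vcan joining without the library labelled knockout 2.

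The log2 fold change of Ace stayed positive in 11 of 11 alternatives (3.15 without the library labelled knockout 1 to 4.73 without knockout 2), and that of Spn in 11 of 11 (1.798 to 2.70, with the same 2 libraries left out). Where a library labelled knockout was left out, the lone one was assumed to vary like the controls. Itgal ran from -0.25 to 0.22 and Vcan from -0.89 to 1.11; Vcan was -0.15 with the replicate block. Of 207 list medians under alternatives 18 moved by more than the spread between libraries. All of these moves came from leaving out a library, mostly one labelled knockout, and none from another scaling or fit of the same libraries.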
